A study of Homo sapiens with 36 samples.

Results

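Binding of V5-tagged HIF-α was examined near the genes for AP-1 subunits in 786-O cells. The 9 genes were JUN, JUNB, JUND, FOS, FOSB, FOSL1, FOSL2, ATF3 and BATF3, of 20033 protein-coding genes. They were chosen by name, and a peak was counted for a gene if its summit lay in the gene body or within 50 kb on either side. The 9 windows together covered 989455 bp and held 68 of the 25783 consensus regions, where a consensus region is a merged region with a peak in at least 2 libraries. Of these 68 regions, 2 fell in the windows of both ATF3 and BATF3, which are neighbours on chromosome 1.

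AP-1 is a dimer of basic leucine zipper (bZIP) proteins. JUN proteins can pair with each other or with FOS proteins, while FOS proteins need a JUN partner, and ATF3 and BATF3 pair with JUN proteins as well. Several of these genes are immediate-early genes, whose transcription responds within minutes to growth factors and stress through MAP kinases, and AP-1 is known for its part in proliferation, invasion and stress responses of tumor cells. HIF-1α and HIF-2α pair with HIF-1β and bind the hypoxia response element (HRE), a short motif found at many enhancers and promoters.

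786-O is a clear cell renal carcinoma line without working VHL, so that HIF-2α escapes degradation even with oxygen present. Per the paper, a truncating mutation leaves these cells without functional HIF-1α of their own. Cut&Run, in which an antibody tethers a nuclease that releases DNA fragments around the bound protein, was done with anti-V5 in 6 lines with 3 biological replicates each. WT cells carried no tag, and the HIF-2α knock-in (KIN) line was 1 homozygous clone whose own HIF-2α gene carries the V5 and Halo tags. In the other 4 stable lines an L30 promoter drove an added, V5-Halo-tagged protein, which was HIF-2α, HIF-1α or either of their domain swaps, and the untagged HIF-2α of the cells was not stated to be removed. In HIF-2α/1α and HIF-1α/2α the first name gives the N-terminal portion, which binds DNA and dimerizes and is called the DBD here, and the second gives the intrinsically disordered region (IDR). Peaks of each anti-V5 library had been called over a matched IgG control.

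The lists held 392 to 9508 peaks in WT and 3984 to 20808 in the 15 tagged libraries, at depths of 0.241 to 0.625 fragments per base. WT replicate 2, with 9508 peaks, stood apart from the other WT lists of 392 and 743. Replicate 2 of HIF-2α, with 20651 peaks, stood apart from replicates 1 and 3, with 6590 and 5906. In every line the longest list was that of replicate 2. Strength within a list was given as the rank percentile, the rank of a peak by its −log10 p-value in percent of the list, where a low percentile is a strong peak. The same rank gives a higher percentile in a shorter list, so percentiles of libraries also differ with list length. A region that is not called is not shown to be unbound.

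All 9 genes had consensus regions in their windows, but their number and strength differed widely. FOSL1 had 10 regions and JUN had 11, whereas FOS had 5 and BATF3 had 3. Regions called in every tagged library were found at JUN (2), JUNB (3), JUND (1), FOSL1 (3) and FOSL2 (3), which makes 12 of 68 regions (17.6%) against 6.67% of all consensus regions. At FOS, FOSB, ATF3 and BATF3 no region was called in all 15. Of the 12 regions, 6 (8.82% of the 68) were called in no WT library, against 4.66% of all consensus regions. Calls in untagged WT cells were also a larger share here than in the genome. At least 1 WT library called 18 of the 68 regions (26.5%) against 14.3% of all, and at least 2 called 7 (10.3%) against 1.93%. WT replicate 2, which has by far the longest WT list, called all 18, while replicates 1 and 3 called 1 and 7. Of the 7 regions called by at least 2 WT libraries, FOSL2 had 3 and JUN, JUNB, JUND and FOSB had 1 each. FOS, FOSL1, ATF3 and BATF3 had none.

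**Figure D1:**
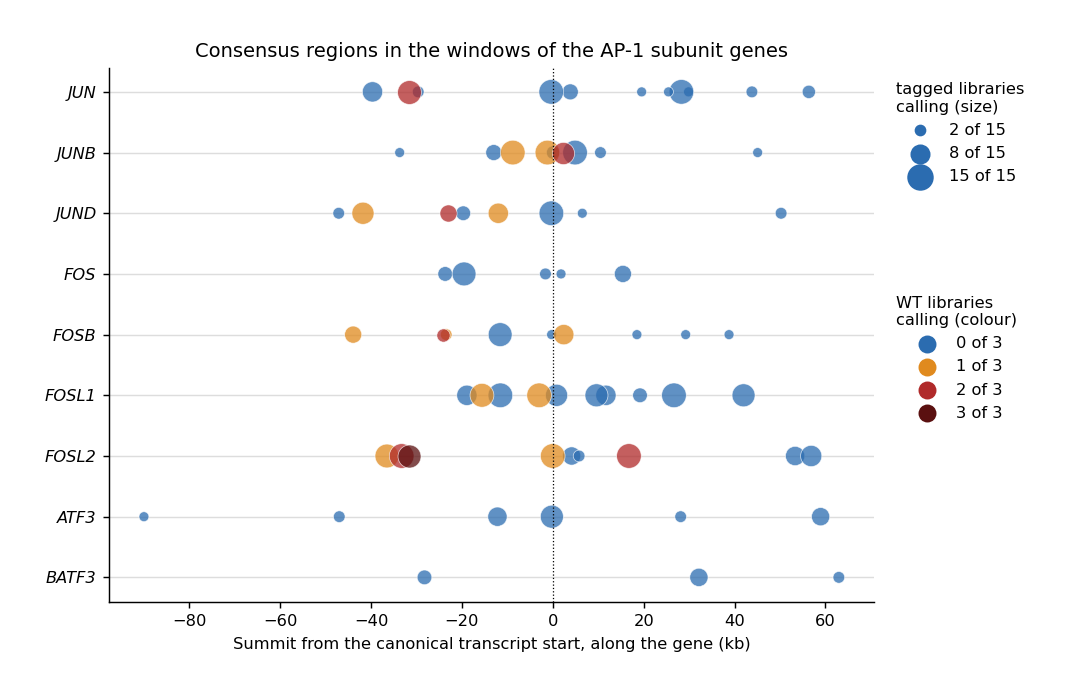
Each point is a consensus region, placed by the distance of its median summit from the canonical transcript start of the AP-1 subunit gene (x axis, kb, positive along the gene), with 1 row for each gene. Point size gives how many of the 15 tagged libraries called the region and colour how many of the 3 WT libraries did. Large blue points, called in all 15 tagged and no WT library, lie at JUN, JUNB, JUND and FOSL1, and the row of BATF3 holds small points only.

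By line, 24 of the 68 regions (35.3%) were called in at least 2 KIN libraries, against 19.6% of all consensus regions. For exogenous HIF-2α the count was 25 (36.8%, against 26.0%), for HIF-2α/1α 44 (64.7%, against 53.7%), for HIF-1α 40 (58.8%, against 55.1%) and for HIF-1α/2α 42 (61.8%, against 42.4%). By this count HIF-2α/1α had the most regions near AP-1 genes (44, against 42 and 40), whereas HIF-1α had the most in the whole genome. These counts lay close together and were not tested against each other. By the mean number of peaks in the windows the order was another, with 51.0 for HIF-1α/2α, 50.7 for HIF-1α and 49.7 for HIF-2α/1α. The margin over the genome was smallest for HIF-1α, whose 58.8% was close to its 55.1%.

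At the promoters, where a summit lies within 1 kb of a protein-coding transcript start, JUN, JUND, FOSL1, FOSL2 and ATF3 had peaks in 2 or 3 libraries of each of the 5 tagged lines. These 5 of 9 genes (55.6%) compare with 1160 of 20033 protein-coding genes (5.79%). Only JUN, JUND and FOSL2 were called at the promoter in all 15 tagged libraries. FOSL1 and ATF3 were called in 13, FOSB in 11, JUNB in 4, FOS in 3 and BATF3 in 1. None of the 9 promoters was called in 2 WT libraries, while FOSB and FOSL2 each had a promoter peak in 1. In the whole windows, every gene except BATF3 was called by 2 or more libraries in all 5 tagged lines, which makes 8 of 9 (88.9%) against 31.2% of protein-coding genes. The windows of JUN, JUNB, JUND, FOSB and FOSL2 were also called in at least 2 WT libraries (5 of 9, against 6.24% of all protein-coding genes). The genes were not matched to others for length, neighbours or expression. The promoter count fell to 3 of 9 where all 3 libraries of a line were required, against 2.52% of all genes. With every tagged list cut to its strongest 3984 peaks it was also 3 of 9, against 2.84%.

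**Figure D2:**
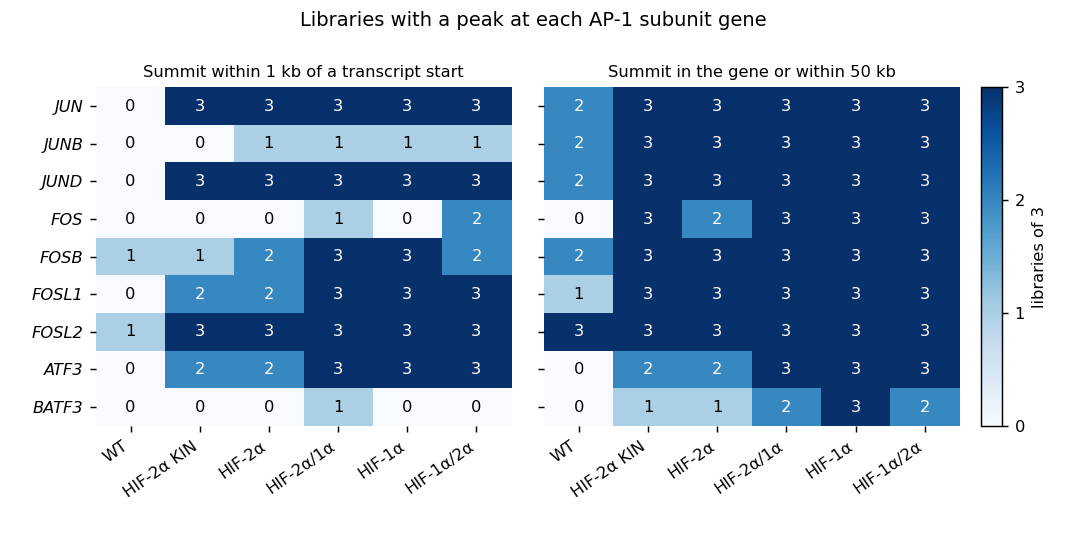
Cells give the number of the 3 libraries of each line (columns) that had a peak at each AP-1 subunit gene (rows), at a promoter (left) and in the gene or within 50 kb (right). JUN, JUND and FOSL2 read 3 in every tagged line at the promoter, whereas JUNB reads 0 or 1 there and 3 in its window in the tagged lines.

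Related genes were counted in the same way. Of 10 other bZIP genes related to AP-1, MAF and MAFF had a promoter peak in all 5 tagged lines (20.0%). MAFF, a small MAF protein, was called in 14 of 15 tagged libraries, MAF in 10 and MAFG in 8. Of 12 genes of the kinase route to AP-1, MAP3K1 and DUSP1 had one in all 5 lines (16.7%). MAP3K1, a kinase upstream of JNK, and DUSP1, a phosphatase that switches MAP kinases off, were each called in 14 of 15 tagged libraries, and SRF, which binds the serum response element of FOS, in 12. MAPK9, MAP2K4, BATF, BATF2, JDP2 and ATF7 had no promoter peak in any tagged library. These lists were not compared with the 9 genes by a test.

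The strongest of the 68 regions lay in an intron of FOSL2, which encodes FRA-2, a FOS family subunit that lacks the strong transactivation domain of FOS. The region (chr2:28406549-28410711 on hg38) had its summit 16.8 kb into the gene. Its rank percentiles were 0.201, 0.0455 and 0.219 in KIN, 0.212, 0.0678 and 0.373 in HIF-2α, and 0.0942, 0.0433 and 0.170 in HIF-2α/1α. They were 0.179, 0.0681 and 0.207 in HIF-1α and 0.0842, 0.121 and 0.591 in HIF-1α/2α. In all 15 tagged libraries the region was therefore among the top 69 peaks of its list, and the lines overlapped. The summits of the 15 libraries lay within 11 bp of each other, and fragments at the summit exceeded the genome-wide mean 414-fold to 2843-fold. WT libraries called the region as well, but low in their lists, at percentiles of 40.5 in replicate 2 and 21.5 in replicate 3 and at 96.4-fold and 66.4-fold of the mean. The WT summit of replicate 2 was 42 bp from the tagged summits and that of replicate 3 was 2638 bp away. No HRE or AP-1 motif lay within 50 bp of the summit. The nearest HRE core in the printed 141 bases, shown in capitals as in all sequences here, started 58 bp before the summit (chr2:28409541-28409681, plus strand):
FOSL2 intron: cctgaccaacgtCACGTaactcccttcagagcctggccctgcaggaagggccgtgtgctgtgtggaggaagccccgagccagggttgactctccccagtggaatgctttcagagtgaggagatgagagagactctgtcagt

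The promoter of FOSL2 was also called in all 15 tagged libraries (chr2:28389962-28393778, summit 12 bp before the canonical transcript start and inside an intron of a longer FOSL2 transcript and in the antisense gene FOSL2-AS1). Percentiles were 13.8, 5.44 and 2.26 in KIN, 2.34, 1.23 and 5.32 in HIF-2α, 1.98, 0.831 and 0.493 in HIF-2α/1α. The percentiles were 3.20, 2.30 and 5.69 in HIF-1α and 5.15, 4.97 and 5.39 in HIF-1α/2α. HIF-2α/1α held the 2 strongest values, and its other one overlapped with HIF-2α. WT replicate 2 called it too, at 6.54, with a summit 4 bp from the tagged median. An AP-1 motif (TGACTCA or TGAGTCA) started 16 bp past the summit, in the 5′ untranslated region, and is shown because it lies within 50 bp (chr2:28392851-28392879, plus strand):
FOSL2 promoter: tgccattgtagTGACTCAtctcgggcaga

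A cluster of regions 31.6 to 36.5 kb upstream of FOSL2 was called in tagged and in WT cells. The one called in all 15 tagged libraries, 33.3 kb upstream, stood at a percentile of 1.06 in WT replicate 2 and 7.40 in WT replicate 3, and between 4.91 and 46.6 in the tagged libraries. Its WT summits lay 28 and 1 bp from the tagged median.

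Outside the windows, 3 consensus regions had the rank percentiles most like those of the FOSL2 intron over the 15 tagged libraries. They lay at chr11:69418946-69421984, chr1:8200740-8204087 and chr17:80891126-80893465. The nearest protein-coding transcript starts were those of MYEOV, SLC45A1 and RPTOR, at 125753, 115684 and 30358 bp, and a link to these genes was not tested. Mean absolute differences of these regions from the FOSL2 intron were 0.110, 0.110 and 0.119 percentile points.

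JUN encodes c-Jun, a subunit that can form AP-1 with itself or with any FOS protein. It had a pair of regions called in all 15 tagged libraries and in no WT library, and no other protein-coding gene lies in its window. The stronger one was 28.3 kb downstream of the start (chr1:58754790-58756522), between protein-coding genes and in the lncRNA gene ENSG00000283445. Its percentiles were 15.9, 0.970 and 5.61 in KIN, 2.66, 0.421 and 4.88 in HIF-2α, and 0.707, 0.577 and 1.54 in HIF-2α/1α. In HIF-1α they were 1.39, 0.690 and 0.685, and in HIF-1α/2α 0.574, 0.374 and 0.163. The 3 HIF-1α/2α libraries were among the 4 strongest, with HIF-2α replicate 2, and KIN replicates 1 and 3 were the weakest. An HRE core on both strands (CACGTG) began 60 bp before the summit (chr1:58755674-58755814, plus strand):
JUN downstream region: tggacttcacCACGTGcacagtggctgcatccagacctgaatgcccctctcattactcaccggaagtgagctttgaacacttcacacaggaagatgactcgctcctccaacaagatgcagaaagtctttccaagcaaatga

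The JUN promoter (chr1:58782346-58786366, summit 345 bp upstream) was weaker. Percentiles were 24.0, 5.91 and 6.43 in KIN, 8.36, 2.49 and 5.44 in HIF-2α, 5.19, 5.60 and 6.62 in HIF-2α/1α. They stood at 20.2, 13.5 and 21.5 in HIF-1α and 4.36, 3.90 and 12.4 in HIF-1α/2α. Among the exogenous lines the 3 HIF-1α libraries had the highest percentiles. How many of all regions set 1 line apart in this way was not counted. The lncRNA gene LINC01135 also covers this summit. Of the other 9 regions near JUN, 6 were called in fewer than 5 tagged libraries, and 1, which lay 31.7 kb upstream, was called in 14 tagged and 2 WT libraries.

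FOSL1, which encodes FRA-1, a FOS family subunit often raised in invasive tumors, had the most tagged peaks near it. Its window holds 10 other protein-coding genes, and several of its regions lay at their starts, for example at EFEMP2, CFL1, FIBP, CCDC85B and DRAP1. All 10 regions were called in at least 5 tagged libraries and 7 in at least 12. The strongest was 11.5 kb upstream (chr11:65910000-65913327), with percentiles of 10.1, 1.64 and 1.94 in KIN, 4.45, 0.683 and 4.33 in HIF-2α, 1.74, 0.519 and 1.73 in HIF-2α/1α. They were 1.44, 0.326 and 1.82 in HIF-1α and 0.643, 0.447 and 0.856 in HIF-1α/2α. No WT library called it, the 15 summits lay within 22 bp, and HIF-1α/2α was again the line with the best mean rank. Nearest to the start of FOSL1 was a region in its intron (chr11:65899022-65899868), 827 bp into the gene, which was called in 12 tagged and no WT libraries at percentiles of 14.7 to 68.0. It has an HRE 21 bp past the summit (chr11:65899511-65899611, plus strand):
FOSL1 intron: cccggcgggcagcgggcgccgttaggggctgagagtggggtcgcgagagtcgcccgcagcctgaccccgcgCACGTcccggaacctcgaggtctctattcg

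Another region at FOSL1 ran over the sequence just upstream of the gene (chr11:65900446-65903673) and joined separate peaks about 0.3, 1.9 and 3.0 kb before the start. The peak at 3.0 kb, 2929 to 3078 bp upstream, was in all 15 tagged lists. Its percentiles were 50.4, 11.5 and 9.00 in KIN, 35.0, 4.93 and 47.2 in HIF-2α and 8.42, 6.59 and 10.9 in HIF-2α/1α. They were 0.159, 0.972 and 1.58 in HIF-1α and 1.65, 1.63 and 2.14 in HIF-1α/2α. All 6 libraries with the HIF-1α DBD therefore ranked this site above all 9 with the HIF-2α DBD, whichever IDR they had. At the peak the fragments stood at 336-fold to 1001-fold of the genome-wide mean with the HIF-1α DBD, and at 85.6-fold to 458-fold with the HIF-2α DBD in the exogenous lines, so on that scale the groups overlapped. WT replicate 2 had peaks at 1.9 kb (percentile 4.42) and at 3.1 kb (percentile 11.8, 121-fold), so part of this region was called without a tag. A separate peak at 1.9 kb was found in 6 tagged libraries, all with the HIF-2α DBD. In the HIF-1α DBD libraries 1 long peak ran over that site and the one at 3.0 kb, so that a separate peak could not be called. The same held for HIF-2α replicate 2 and HIF-2α/1α replicates 2 and 3, so the long peak was not particular to the HIF-1α DBD. The 141 bases around the 3.0 kb summit, printed because this region differed most between the DBDs, hold no HRE and no AP-1 motif (chr11:65903327-65903467, plus strand):
FOSL1 3.0 kb upstream: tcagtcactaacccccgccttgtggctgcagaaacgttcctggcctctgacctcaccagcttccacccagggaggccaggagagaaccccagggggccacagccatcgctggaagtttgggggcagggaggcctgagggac

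JUND encodes a JUN subunit that is present in resting cells. Its promoter (chr19:18279595-18282588, summit 309 bp upstream) was called in all 15 tagged and no WT libraries. Percentiles were 17.6, 8.70 and 25.6 in KIN, 19.9, 6.54 and 55.2 in HIF-2α, 2.30, 5.85 and 12.6 in HIF-2α/1α. The percentiles were 5.11, 7.03 and 6.17 in HIF-1α and 6.90, 6.02 and 6.55 in HIF-1α/2α. The 4 highest percentiles were in replicates 1 and 3 of KIN and of HIF-2α. Their lists were the 4 shortest tagged ones (3984, 7311, 6590 and 5906 peaks), and a given rank is a higher percentile there. Of the JUN, JUND and FOSL2 promoters, this one alone had HREs within 50 bp of the summit of its region, which began 22 and 9 bp before it (chr19:18281881-18281981, plus strand):
JUND promoter: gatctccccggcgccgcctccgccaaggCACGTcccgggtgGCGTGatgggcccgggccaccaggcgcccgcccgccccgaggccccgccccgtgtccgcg

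JUNB encodes a JUN subunit that is a weaker activator than c-Jun. It lies inside the annotated span of HOOK2, and 3 of its 9 regions were called in all 15 tagged libraries. Its own start was not among them. The region 52 bp past the start (chr19:12791185-12791826) was called in 1 library each of the 4 exogenous lines, at percentiles of 27.3 to 70.4. The strongest region lay 4.9 kb downstream (chr19:12795871-12796949), where no WT library made a call. Percentiles there were 58.2, 9.10 and 21.4 in KIN, 15.4, 6.56 and 56.4 in HIF-2α, 23.6, 17.8 and 21.6 in HIF-2α/1α. They stood at 22.9, 7.82 and 18.4 in HIF-1α and 6.23, 2.99 and 11.8 in HIF-1α/2α. The region 1.2 kb upstream (chr19:12789955-12790557) had percentiles of 35.7, 33.0 and 78.2 in KIN, 57.9, 7.68 and 57.0 in HIF-2α, 12.9, 7.47 and 5.72 in HIF-2α/1α. They were 12.1, 12.0 and 18.6 in HIF-1α and 23.4, 20.8 and 67.7 in HIF-1α/2α. Libraries with the HIF-1α IDR were stronger here, apart from HIF-2α replicate 2. WT replicate 2 called the same place, 4 bp from the tagged median, at a percentile of 27.7.

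FOS encodes c-Fos, the best known immediate-early subunit. Its start was hardly called, and no WT library called any of its regions. The region nearest to a FOS transcript start lies in a coding exon (chr14:75280273-75281404) and was called in 2 HIF-1α/2α libraries only, at percentiles of 21.2 and 62.5. The main region was 19.5 kb upstream (chr14:75258469-75259940), in the lncRNA gene ENSG00000258740. It was called in 14 of 15 tagged libraries, all but HIF-2α replicate 3. Percentiles were 7.99, 5.42 and 14.1 in KIN, 18.5 and 20.9 in HIF-2α, 11.2, 24.2 and 42.4 in HIF-2α/1α. The percentiles were 4.79, 4.03 and 15.5 in HIF-1α and 3.35, 7.38 and 32.3 in HIF-1α/2α. The KIN percentiles of 5.42 to 14.1 fell within the range of the exogenous lines.

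FOSB, a FOS paralog with a truncated splice form, shared its window with ERCC1. The region called most, in 14 tagged and no WT libraries, was 11.6 kb upstream in an intron of ERCC1 (chr19:45455668-45456699). Percentiles were 56.4, 14.7 and 32.0 in KIN, 26.3 and 8.17 in HIF-2α, 5.55, 5.00 and 9.46 in HIF-2α/1α. They stood at 9.73, 2.94 and 11.1 in HIF-1α and 28.2, 16.5 and 34.5 in HIF-1α/2α. The HIF-1α IDR lines had lower percentiles than the HIF-1α/2α line, while HIF-2α replicate 2 fell among them. How many of all regions show such an order was not counted. A pair of HRE cores began 24 and 10 bp before the summit (chr19:45456367-45456467, plus strand):
FOSB upstream region: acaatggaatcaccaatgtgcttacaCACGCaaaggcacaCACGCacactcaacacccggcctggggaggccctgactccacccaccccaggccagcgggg

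Within FOSB, a region around the start of shorter transcripts (chr19:45468863-45471074) was called in 10 tagged libraries and in WT replicate 2. Its median summit lay 146 bp from the nearest start. The 10 tagged summits spread over 1117 bp, and only 4 lay within 50 bp of their median. Percentiles were 23.9 in WT and 25.0 to 70.9 in tagged libraries. The region 262 bp from the nearest upstream FOSB start was called in 2 tagged libraries.

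ATF3, a stress-induced subunit that often represses, had 1 region that was called in over 12 tagged libraries, 203 bp upstream of its canonical start and in an intron of longer ATF3 transcripts (chr1:212607655-212609001). It was called in 13 of 15 tagged and no WT libraries, with percentiles of 78.5 and 69.0 in KIN, 44.8 and 10.0 in HIF-2α, 14.5, 12.7 and 24.3 in HIF-2α/1α. They were 6.82, 9.36 and 4.49 in HIF-1α and 14.0, 8.76 and 23.1 in HIF-1α/2α. The 3 HIF-1α libraries were among the 5 strongest and the 2 KIN values were the weakest, while KIN replicate 1 and HIF-2α replicate 3 made no call.

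BATF3, known for its part in dendritic cell development, was the least called gene. Its promoter was called in 1 HIF-2α/1α library. Its most called region, 32.1 kb downstream of the start (chr1:212667499-212668233), was called in 8 tagged libraries at percentiles of 28.1 to 86.8. The region nearest to its start lay 28.2 kb upstream in an untranslated end of NSL1 (chr1:212727519-212728259), and was called in 5 tagged libraries. It carries an HRE 38 bp past the summit (chr1:212728096-212728124, plus strand):
BATF3 upstream region: ctcatgaaatggGCGTGgtaatagccctt

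Over the 68 regions, HREs (ACGTG or GCGTG, both strands) lay within 50 bp of the summit in 14 (20.6%), against 24.4% of all consensus regions. AP-1 motifs were found in 5 (7.35%, against 8.32%), and the CRE motif TGACGTCA in 0 (against 0.326%). Of the 12 regions called in all tagged libraries, 3 had an HRE within 50 bp, which were the JUND promoter, the JUNB region 8.8 kb upstream and the region at the EFEMP2 start in the FOSL1 window. In wider windows of 150 bp to each side, 43 regions (63.2%) held an HRE, against 59.5% of all. A match is a match of letters only.

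**Figure D3:**
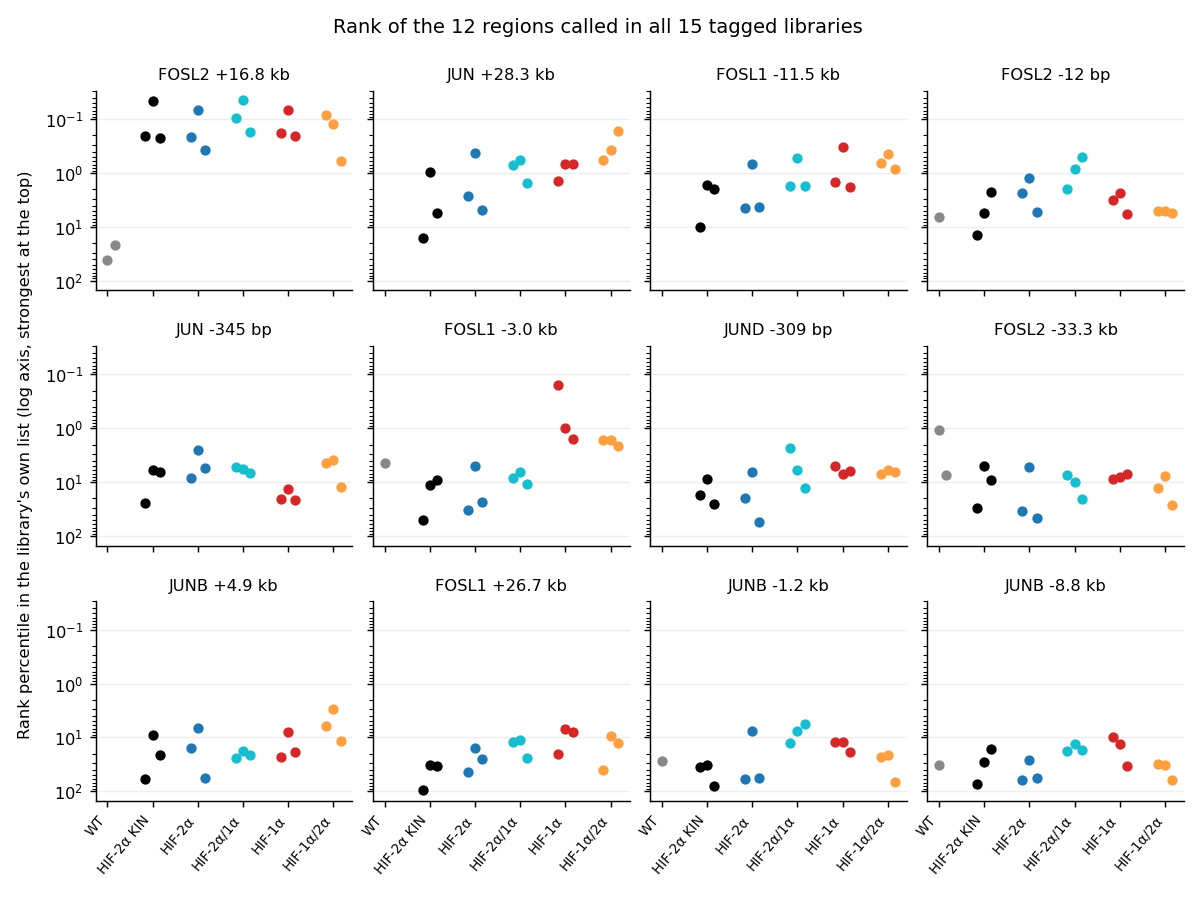
Each panel is 1 of the 12 regions near AP-1 subunit genes that were called in all 15 tagged libraries, named by gene and summit distance from the transcript start, with the rank percentile of each library on a log axis (strongest at the top) and 1 column for each line. A library without a call has no point. The FOSL2 intron at 16.8 kb lies at 0.591 or stronger in every tagged library, and at FOSL1 -3.0 kb the HIF-1α and HIF-1α/2α points (0.159 to 2.14) lie above all others.

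The number and the share of peaks in the 9 windows were then set side by side between lines, to see how much of each list lay near AP-1 genes. These sums run over genes chosen by name with earlier results of these data known, so they are given without a p-value. WT lists held 1, 22 and 7 such peaks and tagged lists 21 to 58, so that WT replicate 2 overlapped with KIN replicate 1 alone. On the scale of log2(number + 1), tagged libraries were higher by 2.58 on average (5.42 against 2.84). The difference was 1.66 without WT replicate 1, 1.58 with lists cut to at most 3984 peaks, and 3.87 without peaks in regions called in at least 2 WT libraries. The last setting removes regions by their WT calls, so it favours the tagged libraries by construction. FOSL1 and FOSL2 had the highest counts, with 165 and 138 over all 18 lists, and BATF3 had the lowest, with 17. As a share of the list the direction was not the same. WT lists had 0.255%, 0.231% and 0.942% of their peaks in the windows and tagged lists had 0.264% to 0.527%, a difference of -0.125 percentage points. Without WT replicate 3, which holds 7 of 743 peaks here, the difference was 0.108. Without peaks in regions called in at least 2 WT libraries it was 0.252, a setting that again favours the tagged libraries by construction.

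Between the domains the ranges overlapped. The share averaged 0.358% in the 6 libraries with a HIF-2α IDR (0.271% to 0.423%) and 0.298% in the 6 with that of HIF-1α (0.264% to 0.345%). For the DBD the averages were 0.328% for HIF-2α (0.264% to 0.423%) and 0.327% for HIF-1α (0.264% to 0.385%). Exogenous HIF-2α had a mean of 0.358% and KIN of 0.442%, again with overlap. The IDR difference in share was 0.0590 within the HIF-2α DBD and 0.0607 within the other DBD. Numbers differed by -0.27 on the log2 scale for the IDR, -0.33 for the DBD and 0.05 for HIF-2α against KIN. With these lists cut to their strongest 3984 peaks, the IDR difference in share was 0.00418 percentage points, against 0.0598 in full lists. The DBD difference was then -0.0628, with the smaller share for the HIF-2α DBD, against 0.00102 in full lists.

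**Figure D4:**
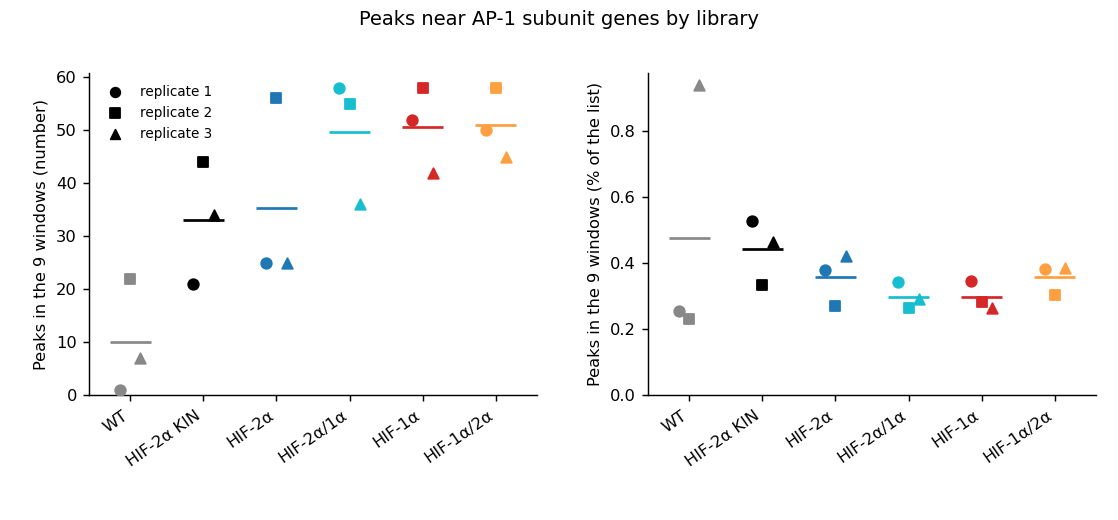
Points give the number of peaks in the 9 windows (left) and their percent of the library's list (right) for each library, with marker shape for the replicate and a line at the mean of the 3 libraries. The WT points at 1 and 7 peaks lie below all tagged libraries and the one at 22 lies above KIN replicate 1 (21) alone, while WT replicate 3, with 0.942%, has the highest share.

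Single regions were then compared. Whether a region was called did not differ between the domains at an exact p under 0.05. Of the 61 member regions not called in 2 or more WT libraries, 0 had a Fisher exact p under 0.05 for the IDR, where 357 of 25285 regions (1.41%) did. For the DBD it was also 0, where 142 (0.562%) did. At such shares few or none of 61 regions would pass, so these counts cannot set the member regions apart from the genome. After adjustment no region of the genome passed for either domain, and the smallest p that 6 libraries against 6 can give is 0.00216. The lowest exact p among member regions was 0.182.

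Among the 12 regions called in all tagged libraries, ranks were compared by limma on the log2 rank percentile, over all 1720 such regions of the genome. For the DBD, 1 of the 12 passed, against 6.40% of all. It was the region just upstream of FOSL1, where the percentile was higher, and the rank therefore lower, with the HIF-2α DBD by 3.44 ± 0.53 (SE) on the log2 scale (95% interval 2.39 to 4.48, limma adjusted p = 1.95e-08). The strongest peak of the region ranked 24 to 310 in the lists with the HIF-1α DBD and 1018 to 2133 with the HIF-2α DBD. As percentiles these were 0.159 to 2.14 and 4.93 to 32.4, with no overlap between 6 and 6 libraries. On percentiles, such a separation in this direction was seen in 42 of 1720 regions (2.44%). KIN, which did not enter this contrast and has the HIF-2α DBD, ranked it 658 to 2008. The fit gave every region the same spread. With each region's own spread the adjusted p was 0.0365, and with ranks by fold or with log2 height it was 0.0778 and 0.189 in the same direction. In HIF-2α replicates 1 and 3 the strongest peak was the one at 1.9 kb. With these libraries left out of the fit for this region, the difference was 2.61. The HIF-2α line then rests on 1 library, replicate 2, so only the size is given.

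For the IDR, 1 of the 12 regions passed, against 13.3% of all. It was the one 1.2 kb upstream of JUNB, where ranks were lower with the HIF-2α IDR by 1.52 ± 0.53 (SE, limma adjusted p = 0.0356), while the median of all 1720 regions was itself 0.45. It did not pass with each region's own spread (adjusted p = 0.129), with ranks by fold (0.435) or with log2 height (0.543), nor without any 1 of 8 of the 15 libraries, with adjusted p-values up to 0.160. Between exogenous HIF-2α and KIN, 0 of 12 regions passed in limma and 0 had an unadjusted p under 0.05, against 2.44% of all that passed. At the FOSL2 promoter the rank was higher with the HIF-2α DBD by 1.48 ± 0.53 (SE, limma difference -1.48, adjusted p = 0.0747), and at the JUN region 28.3 kb downstream it was lower with the HIF-2α DBD, by 1.20 ± 0.53 (SE, adjusted p = 0.198). At the FOSL2 intron the differences were 0.70 ± 0.53 for the IDR (95% interval -0.34 to 1.74) and -0.34 ± 0.53 for the DBD (-1.38 to 0.70). In the limma test of whether the IDR difference changed with the DBD, 0 of 1720 regions passed, and 58 had an unadjusted p under 0.05.

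**Figure D5:**
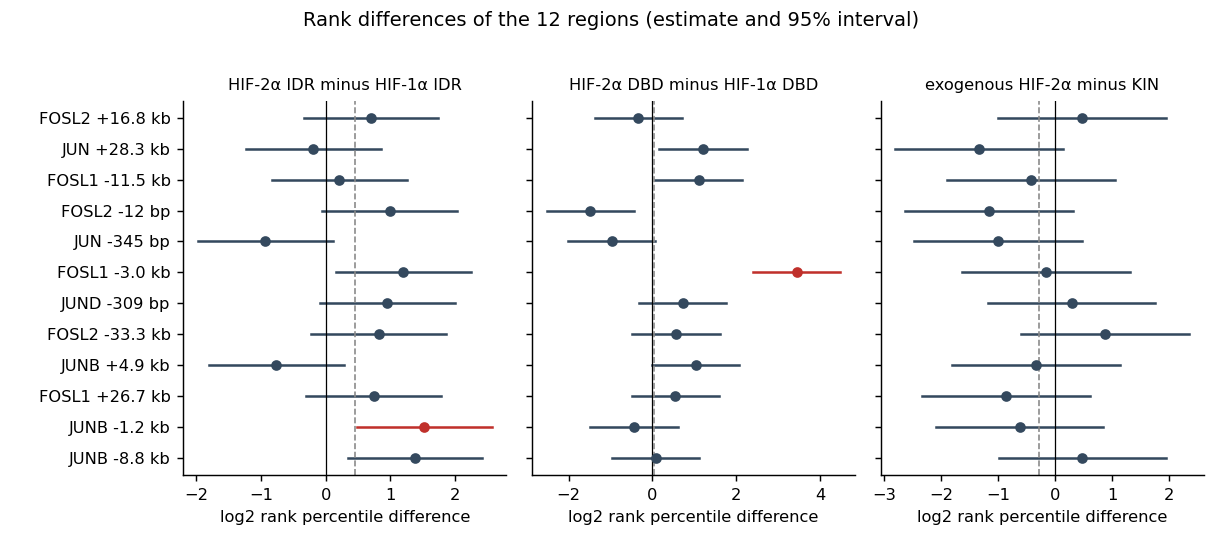
Points give the limma difference in log2 rank percentile for each of the 12 regions (rows, ordered by median rank), with 95% intervals, for the IDR (left), the DBD (middle) and exogenous HIF-2α against KIN (right). Positive values mean a lower rank with the HIF-2α domain or in exogenous HIF-2α, the dashed line is the median of all 1720 regions, and red marks an adjusted p under 0.05, which only FOSL1 -3.0 kb (3.44) and JUNB -1.2 kb (1.52) reached.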

How the data were processed

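Anti-V5 Cut&Run libraries of 6 lines of 786-O cells, 3 for each line, were analysed from the deposited peak lists. Per the labels and the methods, the authors checked reads with FastQC, aligned them to hg38 with Bowtie2 version 2.3.4.1, and called peaks with MACS2 for each library against its IgG library, keeping duplicates, joining gaps of up to 400 bp and cutting at a q-value of 0.01. SAMtools 1.8, BEDTools 2.28.0 and deepTools 3.5.1 were also named. The lists deposited by the authors give the fold enrichment (a ratio), the −log10 p-value, the −log10 q-value and the summit offset of each peak. Fold and p-values are relative to the IgG control of 1 library, so peaks were ranked only within a list. Heights solved from them, in multiples of the library's own genome-wide mean, were also set side by side between libraries, without correction for enrichment.

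Peaks on chromosomes 1 to 22, X and Y that overlapped by at least 1 bp were merged. Genes were those of GENCODE release 44 on hg38. Fragments at summits and depth (the lowest local background, in fragments per base) were solved from fold and −log10 p, and whole fragments came out within 0.001 for 100% of peaks. Lists give no read totals, so depth is known only in this way. Fisher's exact tests and sums used SciPy 1.17.1, NumPy 2.4.6 and pandas 2.3.3 in Python 3.11.15. Exact permutation tests over libraries were planned and run for the sums over the 9 windows, but their p-values are not printed, because the members were chosen with results known. Rank differences used limma 3.58.1, with 1 mean for each line, and p-values were adjusted by Benjamini-Hochberg over all regions tested. Its prior gave 1 spread for all regions. Replicates are biological per the labels. Both tests were tested on simulated data. Lists cut to equal length hold 3984 peaks, except those of WT replicates 1 and 3, which hold 392 and 743 in all. Plots were drawn with matplotlib 3.10.9.

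Members and gene lists were chosen with earlier results of these data known. All 9 members are named, and for each the region nearest to any of its transcript starts and the region called in most tagged libraries are described in full. The JUNB region 1.2 kb upstream, the FOSL1 region 3.0 kb upstream and the FOSL2 cluster were added after their values were seen. IgG libraries were not analysed here on their own. Other windows, list lengths, rankings, a replicate block and left-out libraries were tried as alternatives, and those on each region's own spread and on summits within 200 bp were chosen after seeing the data.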

Additional observations from a re-analysis of the deposited data

How the results depend on the processing

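Results were recomputed with windows of 10 and 100 kb, peaks of −log10 q of at least 5, lists cut to at most 3984 peaks, WT regions left out, other ranks, a replicate block and each library left out in turn. Libraries with the same replicate number were not treated as pairs in the main fits. Their deviations correlated at r = 0.04 to 0.27, over 0.1 in 15 of 30 pairs. Replicate 2 had the longest list in every line, and the labels do not say what a replicate number shares. With the replicate block the difference in peak number between tagged and WT libraries was 2.58, as without it, and the regions with a rank difference rose from 1 to 3 for the IDR and from 1 to 3 for the DBD. This block changed no other call. Over all regions, the calls for the IDR were 229 in the report, 512 with the block, 5 with ranks by fold, 2 with log2 height and 30 with own spreads, those for the DBD 110, 240, 15, 3 and 40, and those for HIF-2α against KIN 42, 141, 3, 12 and 1. The share difference between tagged and WT libraries was 0.0458 with 10 kb windows and 0.252 without WT regions, both opposite to the main value. Leaving out WT regions removes peaks by their WT calls, so the direction of that change was built in. The DBD difference in share was -0.000869 with 10 kb windows, -0.0628 with equal lists and -0.00250 without WT regions and in number it was -0.19 with equal lists. The number difference of the IDR was 0.02 with equal lists, and that of HIF-2α against KIN was -0.05 with 10 kb windows and -0.25 with equal lists. With equal lists the IDR difference in share was 0.00418 and the difference in number between tagged and WT libraries was 1.58. The cause was not tested, and equal lists hold only strong peaks by construction. Promoter peaks in all 5 tagged lines were found at 3 members with 3 of 3 libraries and at 3 with equal lists. Regions with a rank difference numbered 0 (IDR) and 0 (DBD) with ranks by fold and with log2 height, 2 and 2 with regions called in all libraries of the lines compared, and, chosen after seeing the data, 0 (IDR) with each region's own spread. Without 1 library, the share difference between tagged and WT libraries ranged from -0.248 to 0.108, that of the IDR from 0.0435 to 0.0815, that of the DBD from -0.0153 to 0.0227 and that of HIF-2α against KIN from -0.138 to -0.0406. The number differences ranged from 1.66 to 3.42, -0.46 to -0.18, -0.52 to -0.22 and -0.33 to 0.28. The regions with a rank difference numbered 0 to 6 for the IDR, the 6 without HIF-2α replicate 2, and 1 to 3 for the DBD, the 3 also without HIF-2α replicate 2. The FOSL1 difference ranged from 2.94 to 3.85 and the JUNB difference from 1.25 to 2.01. The number of member regions sorted by IDR or DBD in Fisher's test was 0 under every setting. With 61 member regions and genome shares of 1.41% and 0.562% in the main setting, few or none would pass, so these counts say little. How depth affects the calls was not tested. The shortest tagged lists were those of KIN replicate 1 (3984) and HIF-2α replicate 3 (5906).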
